A study of Rattus norvegicus with 36 samples.

Results

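The glucocorticoid receptor gene Nr3c1 (ENSRNOG00000014096) and 2 genes that the receptor is known to induce, Fkbp5 (ENSRNOG00000022523) and Sgk1 (ENSRNOG00000011815), were followed in the striatum of 36 male Sprague Dawley rats aged 2 months. These 3 genes were chosen by name, for their place in the stress axis, by a rule that uses no measured value. Earlier results of these data were known when they were chosen. They are 3 of the 23965 genes in the deposited table and 3 of the 12657 that passed the filter on low counts. The animals carried either no transgene (WT) or the BACHD transgene (TG), a bacterial artificial chromosome with the complete human HTT locus and an expanded, mutant exon 1. Each genotype was raised in 3 environments. In the standard environment (SE) rats shared ordinary cages in small groups, in the enriched environment (EE) they lived after weaning in larger cages with more companions and with toys that were moved around, and in the group labelled ELS the pups were taken away from the dam for hours each day during early postnatal life (maternal separation) and then kept in standard housing. The 6 groups WT SE, TG SE, WT EE, TG EE, WT ELS and TG ELS held 6 animals each. TG and WT animals were littermates, whole litters were assigned to an environment, and the litters are not given per animal, so a litter effect and an environment effect cannot be told apart.

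The glucocorticoid receptor is a transcription factor that waits in the cytoplasm in a complex with heat shock protein chaperones. Corticosterone, the main glucocorticoid of the rat, binds it and sends it to the nucleus, where it binds response elements and changes the transcription of target genes. Fkbp5 encodes a co-chaperone of this complex that lowers the affinity of the receptor for its hormone, and since the receptor induces Fkbp5, the pair forms a short feedback loop. Sgk1 encodes a serine/threonine kinase that regulates ion channels and transporters and is induced by both glucocorticoids and mineralocorticoids. Daily separation of pups from the dam is widely used in rodents to study how early life affects this axis, which is why the comparison of ELS with SE is the question these genes bear on first. The transcript of the receptor starts at several alternative first exons, which a count per gene does not separate.

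All 3 genes matched RefSeq promoter windows of the GRCr8 assembly, each window covering 250 bases before a start and 50 bases after it, and 3 of the 6 windows are printed because they show how differently the starts of the 2 target genes are built. All lie on the minus strand and read 5′ to 3′, with the letters TATAAA, the core of a TATA box, in capitals. The Fkbp5 window is chr20:6543506-6543805, and the Sgk1 windows are chr1:24807182-24807481 (window 1) and chr1:24804782-24805081 (window 3).
Fkbp5: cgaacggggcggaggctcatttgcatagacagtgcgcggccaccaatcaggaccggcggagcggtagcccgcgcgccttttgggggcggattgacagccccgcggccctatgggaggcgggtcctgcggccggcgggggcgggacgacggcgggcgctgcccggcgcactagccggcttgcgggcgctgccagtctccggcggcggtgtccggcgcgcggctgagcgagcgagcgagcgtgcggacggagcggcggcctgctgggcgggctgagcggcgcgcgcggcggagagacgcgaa
Sgk1 window 1: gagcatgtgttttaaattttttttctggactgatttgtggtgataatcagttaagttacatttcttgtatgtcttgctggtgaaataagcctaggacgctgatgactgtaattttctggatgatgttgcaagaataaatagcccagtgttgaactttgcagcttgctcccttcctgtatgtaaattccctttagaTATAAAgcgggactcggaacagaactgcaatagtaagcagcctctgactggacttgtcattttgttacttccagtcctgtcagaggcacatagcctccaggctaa
Sgk1 window 3: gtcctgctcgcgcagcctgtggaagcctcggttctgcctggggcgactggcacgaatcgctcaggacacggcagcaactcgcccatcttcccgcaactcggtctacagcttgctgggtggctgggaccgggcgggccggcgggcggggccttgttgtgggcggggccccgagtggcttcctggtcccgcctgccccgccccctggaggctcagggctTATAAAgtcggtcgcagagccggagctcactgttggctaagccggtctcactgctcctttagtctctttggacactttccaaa
The Fkbp5 window had 77% G and C and 52 CpG dinucleotides, against medians of 51.7% and 7 over all 33469 windows. Window 1 of Sgk1 had 40.7% G and C and 3 CpG dinucleotides, with TATAAA at position −55 from the start, whereas window 3 had 66% and 23, with TATAAA at position −33. Window 2 of Sgk1, which is not printed, had 51.7% and 13 and no TATAAA. The printed windows of this gene are thus those that hold these letters. TATAAA stood on either strand in 14.2% of all windows. A full glucocorticoid response element, searched on both strands as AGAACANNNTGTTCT, was found in 0 of the 6 windows of the 3 genes and in 0.0149% of all windows. Its hexamer AGAACA, or TGTTCT on the other strand, was also found in 0 of the 6 and in 20.7% of all. These matches say only which letters lie in the windows.

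The libraries held between 9895073 and 19284439 counts. The 3 genes were well covered, with raw counts of 808 to 1788 for Nr3c1, 649 to 1060 for Fkbp5 and 626 to 1105 for Sgk1, so that counting alone gave an error of 2.89% to 3.73% of the level in a library of average depth. The gene with the largest difference between the genotypes, ENSRNOG00000010867, which was picked for that difference, lay between 52.5 and 84.7 normalized counts in the 18 WT animals and between 437 and 1149.9 in the 18 TG animals, with no overlap. On the first of the 5 surrogate variables, which were estimated from all genes to stand for unrecorded differences between libraries, 5 libraries lay apart at 0.297 or more while the other 31 lay at 0.0975 or less. They were 3 of the 6 WT SE animals, 1 WT EE animal and 1 TG EE animal. Part of the variance of the surrogate variables lay between groups, 29.3% for the first and 31.5% for the third. The first had a mean of 0.191 in WT SE and −0.083 in WT ELS. A fit with these variables can therefore take up part of a group difference. The dissected tissue could not be checked against marker genes here, because the files do not pair identifiers with gene names. Since whole tissue was sequenced, fewer cells of a type and less RNA per cell cannot be told apart.

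Nr3c1, the receptor itself, lay between 936 and 1272 normalized counts in the 36 animals, with a median of 1077. In WT SE the lowest, median and highest animals had 995, 1091 and 1177 normalized counts (mean 1095 ± 72.3, SD, n = 6). In WT ELS they had 1014, 1070 and 1192 (1094 ± 65.6, SD, n = 6). The means of these 2 groups were nearly equal and the lowest and highest WT ELS animals lay slightly above those of WT SE. In WT EE the values were 973, 1083 and 1272 (1116 ± 112, SD, n = 6). TG SE had the highest mean, with 988, 1157 and 1239 (1134 ± 96.7, SD, n = 6). The EE and ELS groups of the transgenic animals lay at the low end. TG EE had 936, 1055 and 1250 (1083 ± 113, SD, n = 6), and TG ELS had 998, 1072 and 1144 (1071 ± 50.1, SD, n = 6). All 6 groups overlapped, and 0 of the 6 TG ELS animals exceeded the median of TG SE. The highest group mean was 1.06 times the lowest, while the highest animal had 1.36 times the count of the lowest. From low to high the means ran TG ELS, TG EE, WT ELS, WT SE, WT EE, TG SE. The lowest, 1071, and the highest, 1134, lay closer together than the pooled SD within groups of 88.1. That SD is a spread of single animals and not an error of group means. Of the variance, 6.24% lay between groups.

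**Figure D1:**
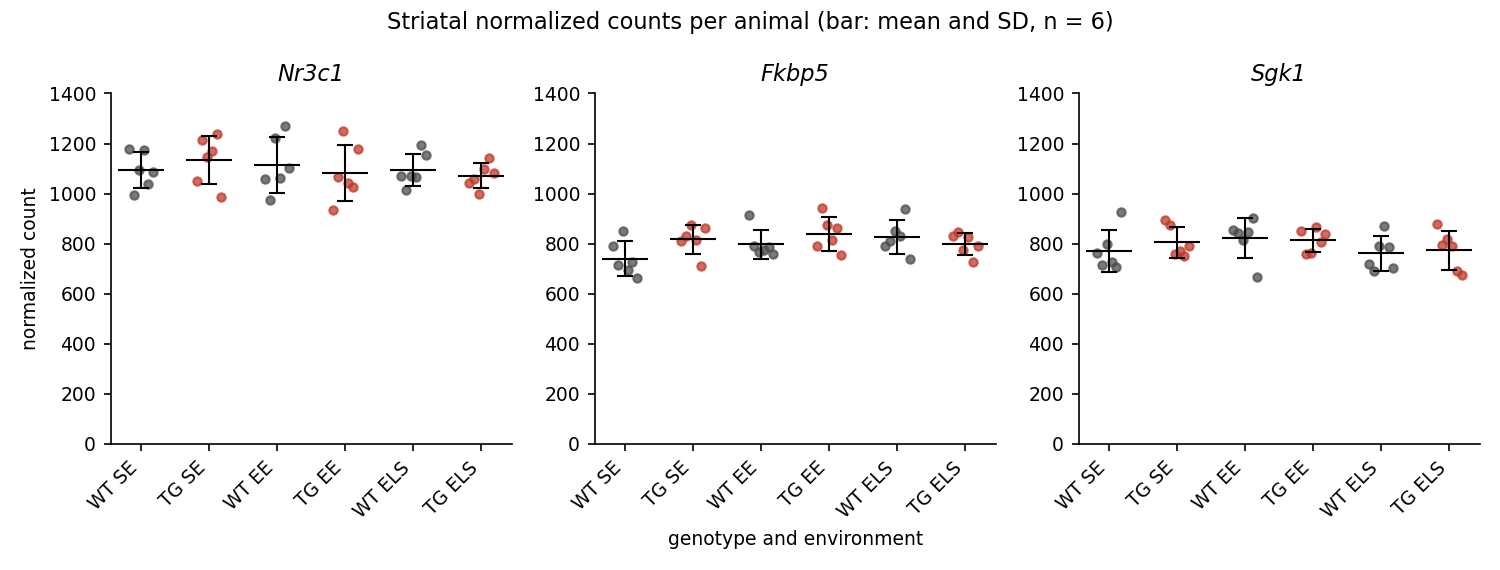
Normalized counts of Nr3c1, Fkbp5 and Sgk1 (vertical axis) in each animal of the 6 groups of genotype and environment (horizontal axis). Points are animals (grey WT, red TG), the horizontal bar is the mean and the error bar the SD over 6 animals. The groups overlap for every gene, and the Fkbp5 mean of WT SE, 740.1, is the lowest of its panel.

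The fitted level of Nr3c1 after maternal separation lay within a few percent of that in standard housing. Averaged over the genotypes, the log2 fold change ELS/SE was 0.032 (standard error 0.031, 95% interval −0.031 to 0.095), a fold of 1.02, with an adjusted p of 0.928 in edgeR's quasi-likelihood test with Benjamini-Hochberg adjustment over all genes. Of the WT animals alone it was 0.035 (−0.056 to 0.126, adjusted p = 0.957), and of the TG animals alone 0.028 (−0.056 to 0.113, adjusted p = 0.9997). Environmental enrichment gave a log2 fold change EE/SE of 0.017 averaged over genotypes (−0.042 to 0.076, adjusted p = 0.9995). The genotypes were just as close, with TG/WT at −0.013 in SE, 0.062 in EE and −0.020 in ELS, and at 0.0096 averaged over the environments (−0.038 to 0.057, adjusted p = 0.900). No interval for Nr3c1 reached 0.3 on the log2 scale, the smallest change that was called. The direction of these small differences was not settled, since for 11 of the 13 comparisons of Nr3c1 it turned when the surrogate variables were left out. Without them the averaged ELS/SE value was −0.042 (−0.137 to 0.053, adjusted p = 0.719). The third variable, which Nr3c1 followed most closely (r = 0.75), had means of 0.171 in TG SE and −0.048 in TG ELS. How much of a group difference the variables took up was not tested.

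Fkbp5, the co-chaperone that dampens the receptor, ranged from 663 to 944 normalized counts with a median of 801, and its groups differed more than those of the other genes in normalized counts, with 24.5% of the variance between groups. WT SE was the lowest group, with a lowest, median and highest animal of 663, 719.9 and 852 (740.1 ± 69.1, SD, n = 6). WT ELS had 739, 820.0 and 937 (826 ± 66.2, SD, n = 6), and WT EE had 759, 779 and 914 (798 ± 58.0, SD, n = 6). All 6 animals of WT ELS and all 6 of WT EE lay above the WT SE median, yet the groups overlapped, since 1 animal of each exceeded the highest WT SE animal. Among the transgenic groups, TG SE had 711, 821 and 875 (817 ± 58.6, SD, n = 6). TG EE, the highest group, had 754, 838 and 944 (839.7 ± 67.7, SD, n = 6). TG ELS had 727, 809 and 847 (799.5 ± 44.6, SD, n = 6). The highest group mean was 1.13 times the lowest. From low to high the means ran WT SE, WT EE, TG ELS, TG SE, WT ELS, TG EE. The lowest, 740.1, and the highest, 839.7, lay farther apart than the pooled SD of 61.3, which is a spread of single animals.

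The lower counts of WT SE moved in part with the libraries that lay apart on the first surrogate variable. The 3 WT SE animals among them had 663, 715 and 725 Fkbp5 normalized counts, and the other 3 WT SE animals had 696, 790.6 and 852. In these other 3 animals the mean was 779 ± 78.7 (SD, n = 3). Without the 5 libraries WT SE thus still had the lowest of the 6 group means, the next being TG ELS at 799.5. Over all 36 animals the deviation of Fkbp5 from its group mean had a Pearson r of −0.62 with that of the first surrogate variable, a description over libraries that share depth and preparation. What this variable stands for was not tested. Without surrogate variables, the log2 fold change ELS/SE of the WT animals was 0.16 (standard error 0.064, 95% interval 0.029 to 0.289), with an unadjusted p of 0.0176 and an adjusted p of 0.521 in edgeR's quasi-likelihood test with Benjamini-Hochberg adjustment. With them it was 0.013 (standard error 0.061, −0.111 to 0.138, adjusted p = 0.993). Without surrogate variables and without the 5 libraries it was 0.091 (unadjusted p = 0.247, adjusted p = 0.991). TG/WT in SE was 0.14 without surrogate variables (0.014 to 0.273, adjusted p = 0.457), 0.052 with them (−0.073 to 0.176, adjusted p = 0.951) and 0.069 without the 5 libraries and the variables (adjusted p = 1.0). In the fit without the 5 libraries but with surrogate variables estimated anew, the comparisons parted, with TG/WT in SE at 0.115 (unadjusted p = 0.0758, adjusted p = 0.986) and ELS/SE in WT at 0.0019 (adjusted p = 1.0). Neither comparison was called in any of these fits.

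Averaged over the genotypes and with surrogate variables, the fitted Fkbp5 level after maternal separation lay close to that of standard housing. The log2 fold change ELS/SE was 0.0019 (standard error 0.042, 95% interval −0.084 to 0.088, adjusted p = 0.998). In the TG animals it was −0.0094 (−0.125 to 0.106, adjusted p = 0.9997). EE/SE was 0.026 in both genotypes, and 0.026 averaged over them (−0.054 to 0.106, adjusted p = 0.9995). Without surrogate variables these values were larger in size. ELS/SE was then 0.064 averaged over genotypes (−0.028 to 0.155, adjusted p = 0.553) and −0.032 in TG. EE/SE was 0.107 in WT (−0.023 to 0.237), 0.039 in TG and 0.073 averaged (−0.019 to 0.165, adjusted p = 0.936). With surrogate variables, TG/WT was 0.052 in EE (adjusted p = 0.777), 0.029 in ELS (adjusted p = 0.959) and 0.044 averaged over environments (−0.021 to 0.109, adjusted p = 0.557). These TG/WT values were larger when the 5 libraries were left out and the surrogate variables estimated anew. They were then 0.183 in EE (95% interval 0.039 to 0.327, unadjusted p = 0.0146, adjusted p = 0.47), 0.114 in ELS (unadjusted p = 0.0772, adjusted p = 0.741) and 0.137 averaged (unadjusted p = 0.0025, adjusted p = 0.12), none of which met either limit of the call. Without the 5 libraries and without surrogate variables they were 0.095, −0.049 and 0.038. The interaction of genotype with ELS, which asks whether maternal separation acted differently in the 2 genotypes, was −0.023 (−0.191 to 0.146, adjusted p = 0.9993) with surrogate variables and −0.19 (−0.374 to −0.0078, unadjusted p = 0.0415, adjusted p = 0.992) without them.

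Sgk1, the hormone-induced kinase, ranged from 668 to 926 normalized counts, with a median of 791. In WT SE the lowest, median and highest animals had 706, 743 and 926 (772 ± 83.2, SD, n = 6), and the highest of these was the highest of all 36. In WT ELS they had 692, 752 and 871 (761 ± 69.2, SD, n = 6), the lowest group mean. WT EE had 668, 845 and 901 (821 ± 79.9, SD, n = 6), which is the highest group mean although the group also held the lowest animal. TG SE had 750.2, 780.1 and 895 (806 ± 62.2, SD, n = 6), and all 6 of its animals lay above the WT SE median. TG EE had 758, 822 and 867 (814 ± 46.0, SD, n = 6), and TG ELS had 673, 792 and 879 (774 ± 78.8, SD, n = 6). With all 6 animals per group, every pair of groups overlapped. The lowest and the highest animal were both among the 5 libraries that lay apart on the first surrogate variable. Without the 5, a removal chosen after seeing the data, WT SE had 725 to 798 (n = 3) and WT EE had 813 to 901 (n = 5). These ranges did not overlap. With so few animals ranges can part by chance, and the share of all genes that part this way was not computed. Over all 36 animals, the highest group mean was 1.08 times the lowest, and 11.4% of the variance lay between groups. From low to high the means ran WT ELS, WT SE, TG ELS, TG SE, TG EE, WT EE. The lowest, 761, and the highest, 821, lay closer together than the pooled SD of single animals, 71.0.

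The fitted differences of Sgk1 had the widest intervals of the 3 genes. ELS/SE was −0.068 averaged over genotypes (standard error 0.053, 95% interval −0.175 to 0.040, adjusted p = 0.909), −0.11 in WT (−0.264 to 0.048, adjusted p = 0.884) and −0.027 in TG (−0.171 to 0.116, adjusted p = 0.9997). EE/SE was 0.079 in WT (−0.063 to 0.220, adjusted p = 0.929) and −0.070 in TG (−0.224 to 0.084, adjusted p = 0.9998). The test of the difference between these 2 values, the interaction of genotype with EE, gave −0.15 (−0.367 to 0.069, adjusted p = 0.9994), so they were not shown to differ. TG/WT in ELS was 0.17 (standard error 0.074, 0.016 to 0.319), with an unadjusted p of 0.0310 and an adjusted p of 0.612 in edgeR's quasi-likelihood test with Benjamini-Hochberg adjustment. This value moved with the surrogate variables. The group means were 761 in WT ELS and 774 in TG ELS, 4 of the 6 TG ELS animals exceeded the WT ELS median, and without the variables the log2 fold change was 0.023 (−0.127 to 0.174, adjusted p = 0.998). Of the 5 surrogate variables, Sgk1 had its strongest correlation with the fourth (r = 0.36 of the deviations from group means, n = 36). The group means of that variable were 0.12 in WT ELS and −0.11 in TG ELS. Its part in the shift of TG/WT in ELS was not tested. TG/WT averaged over environments was 0.064 (−0.018 to 0.146, adjusted p = 0.476). Without the 5 libraries and without surrogate variables, EE/SE in WT was 0.163 (unadjusted p = 0.0566). ELS/EE averaged over genotypes was −0.072 in the main fit and −0.113 in this one (unadjusted p = 0.0261, adjusted p = 0.999). With surrogate variables estimated anew these were 0.138 (unadjusted p = 0.0856) and −0.082 (unadjusted p = 0.0655, adjusted p = 0.863). None of these values was called.

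**Figure D2:**
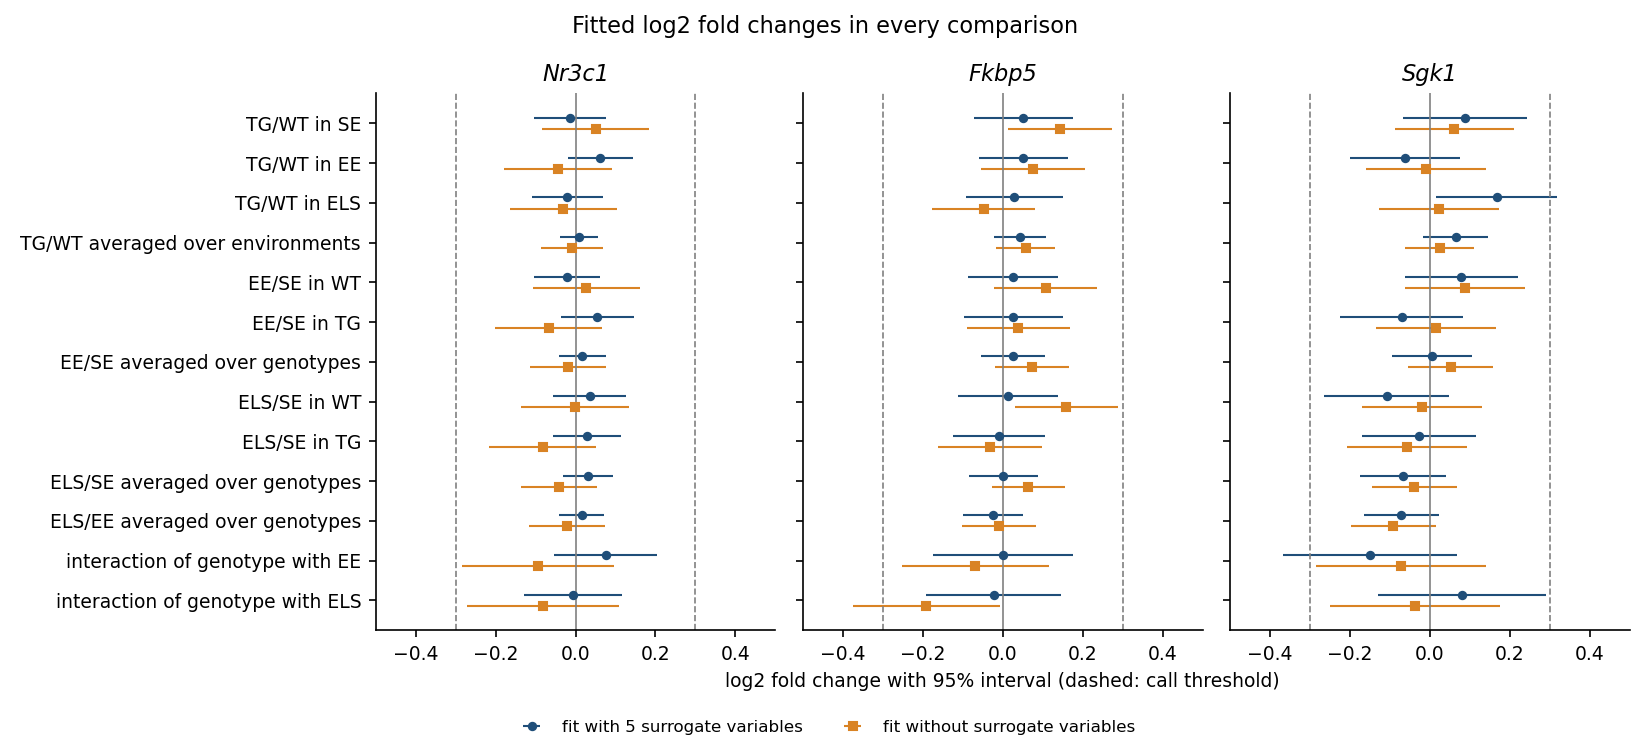
Log2 fold changes of Nr3c1, Fkbp5 and Sgk1 (horizontal axis) in each of 13 comparisons (vertical axis), with 95% intervals, from the fit with 5 surrogate variables (blue circles) and the fit without them (orange squares). Dashed lines mark 0.3 in either direction, and 37 of the 39 blue intervals and 38 of the 39 orange ones lie between them.

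Over the 13 comparisons, 0 of the 39 values of the 3 genes met the limits for a call, an adjusted p no higher than 0.1 together with a log2 fold change of 0.3 or more in either direction, by edgeR's quasi-likelihood test or by DESeq2, with or without surrogate variables. With surrogate variables, 1 of the 39 had an unadjusted p under 0.05 in edgeR and 1 in DESeq2, and without them 3 in each. The background was low in this fit as well. Of all 12657 genes tested, edgeR called 0.213% for TG/WT in SE, 0.411% in EE, 0.134% in ELS and 0.577% averaged over environments. It called 0.0079% for EE/SE averaged over genotypes, which is 1 gene. In the other 8 comparisons it called 0%. Among these were ELS/SE in WT, in TG and averaged, where 777, 523 and 796 genes had an unadjusted p under 0.05 and DESeq2 with the same surrogate variables called 0 as well. That share depended on the fit, since for ELS/SE in WT 50 genes were called with the runs of library numbers as a replicate block and 60 by DESeq2 without surrogate variables, while edgeR without them called 0. Averaged over genotypes, DESeq2 without them called 3. None of these calls was one of the 3 genes. Of the other comparisons at 0 by edgeR, 2 genes were called for EE/SE in WT and 2 for ELS/EE by DESeq2 with the surrogate variables. Read against these shares, 0 of 3 genes called is no result particular to the 3 genes. The median sizes were also ordinary. The median absolute log2 fold change for ELS/SE averaged over genotypes was 0.032 over the 3 genes and 0.040 over all genes. For TG/WT averaged over environments it was 0.044 and 0.040. Single genes differed, and for ELS/SE averaged Fkbp5 stood at percentile 2.58 of all absolute values, Nr3c1 at 41.5 and Sgk1 at 71.7. The highest percentile of the 39 values was 88.4, for Sgk1 TG/WT in ELS.

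The intervals limit how large the differences can be, within each fit and with animals taken as independent. They take no account of litters, so those between environments hold any litter effect and can be too narrow. With surrogate variables, 37 of the 39 intervals lay within 0.3 on the log2 scale in either direction, the exceptions being TG/WT in ELS, up to 0.319, and the interaction with EE, down to −0.367, both of Sgk1. Without them 38 of 39 did, the exception being the interaction of Fkbp5 with ELS. Which intervals passed 0.3 depended on the fit. Without the 5 libraries, 37 of 39 lay inside with surrogate variables and 36 without, and the exceptions then included Fkbp5 TG/WT in EE, up to 0.327, and Sgk1 EE/SE in WT, up to 0.331. With only the 2 groups compared, Fkbp5 ELS/SE in WT reached 0.306. The comparisons share control animals, so the 39 values are not separate pieces of evidence.

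The spread of the 3 genes between animals of a group was like that of other genes with similar counts. The coefficient of variation within groups was 8.02% for Nr3c1, 7.62% for Fkbp5 and 8.98% for Sgk1. Genes whose mean count lay within 0.5 on the log2 scale of each had medians of 8.16% (1777 genes), 8.43% (2275 genes) and 8.45% (2287 genes). The 3 genes stood at percentiles 48, 38.3 and 56.7 of these. Counting error alone accounts for less than the spread between animals for each gene.

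**Figure D3:**
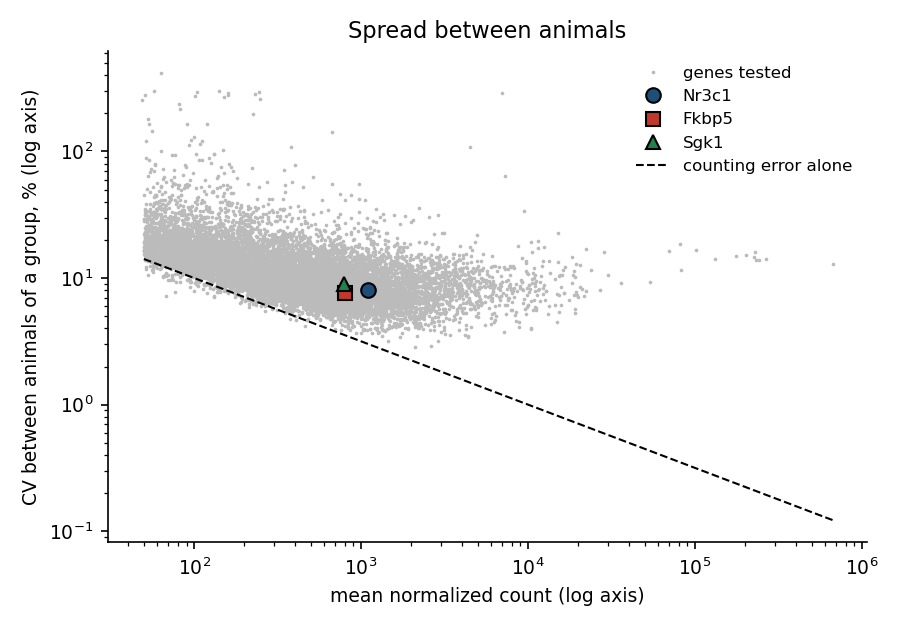
Coefficient of variation between animals of a group (vertical log axis, in percent) against mean normalized count (horizontal log axis) for the 12657 genes tested (grey points), with Nr3c1 (blue circle), Fkbp5 (red square) and Sgk1 (green triangle). The dashed line is the error of counting alone. All 3 genes, at 7.62% to 8.98%, lie inside the grey cloud and above the line.

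The 3 genes differed in what the spread between animals went with. The 5 surrogate variables carried 78.2% of the variance of Nr3c1 within groups, against a median over all genes of 47.9%, which put it at percentile 91.9. Its strongest relation was with the third variable (r = 0.75, n = 36). They carried 45.9% for Fkbp5 and 35.1% for Sgk1. The runs of 6 consecutive library numbers, each of which holds 1 animal of every group, carried 19.8%, 20.1% and 11.4%, against a median of 27.01%. The surrogate variables were estimated from all genes, these 3 included.

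The levels of the receptor and its 2 targets were not seen to vary together between animals. With each log2 normalized count centred on its group mean (n = 36, 100000 permutations within groups, 3 relations, Benjamini-Hochberg adjustment), Nr3c1 and Fkbp5 had a Pearson r of −0.089 (permutation p = 0.638, adjusted 0.638) and a Spearman rho of −0.058 (p = 0.753, adjusted 0.753). Nr3c1 and Sgk1 had an r of −0.109 (permutation p = 0.541, adjusted 0.638) and a rho of −0.129 (p = 0.464, adjusted 0.696). Fkbp5 and Sgk1, both of them targets, had an r of 0.138 (permutation p = 0.453, adjusted 0.638) and a rho of 0.188 (p = 0.2999, adjusted 0.696). Centred also on the runs of library numbers, r was −0.035, −0.063 and 0.069. Without the 2 animals farthest from the median of the first gene of each pair, r was −0.129, −0.149 and 0.092 (n = 34).

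**Figure D4:**
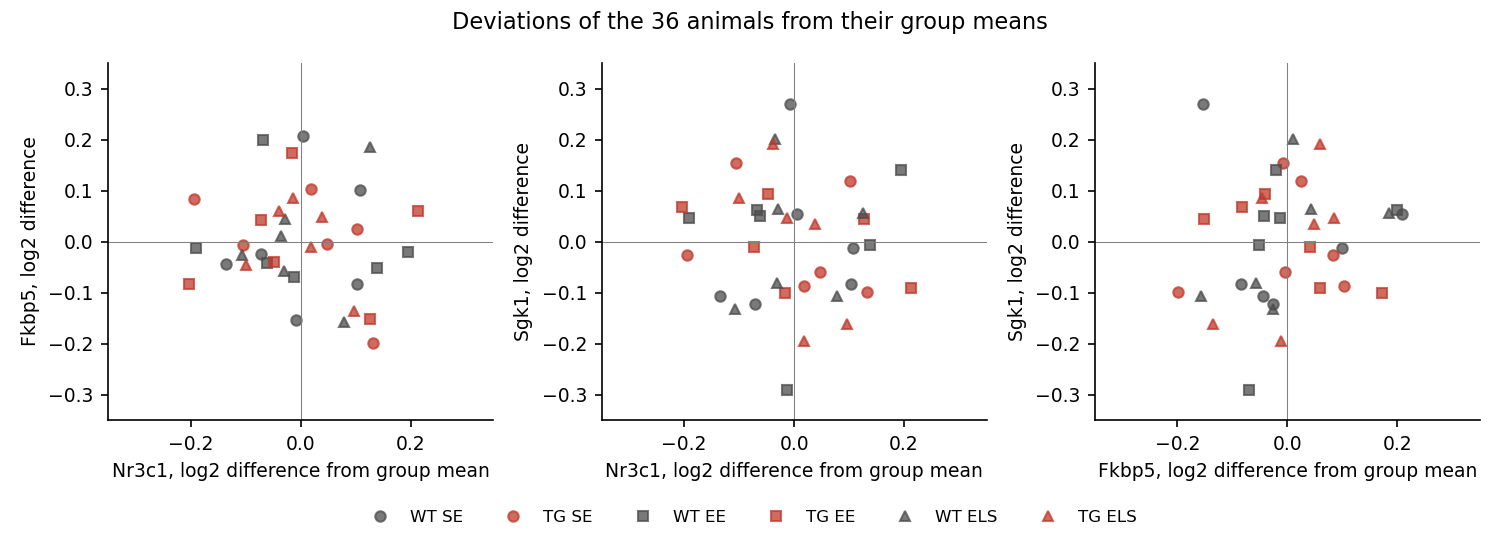
Deviations of each animal from its group mean, in log2 normalized counts, for Nr3c1 against Fkbp5, Nr3c1 against Sgk1 and Fkbp5 against Sgk1. Each point is 1 of the 36 animals, with grey for WT, red for TG, circles for SE, squares for EE and triangles for ELS. The points form no line in any panel, with r of −0.089, −0.109 and 0.138.

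Other genes followed each of the 3 more closely across the same 36 animals. They were picked for the highest rho among 12656 genes, so a rho above that of a fixed pair is built in. For Nr3c1 the most alike was ENSRNOG00000012524 (rho = 0.87), and the 5 most alike all had a rho of at least 0.795. For Fkbp5 the most alike was ENSRNOG00000007364 (rho = 0.74), and for Sgk1 ENSRNOG00000005274 (rho = 0.71). Ranked by likeness to Nr3c1 among the other 12656 genes, Fkbp5 came at place 6974 and Sgk1 at place 8093. By likeness to Sgk1, Fkbp5 came at place 1824. These rankings describe libraries that share their depth and surrogate variables, and the identifiers are given without names because the files do not pair them.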

How the data were processed

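Poly(A) RNA of the striatum was sequenced from 36 rats, 6 in each of 6 groups of genotype and environment, which were taken from the sample labels. The authors deposited 1 table of raw counts per gene for all animals. The submitters' processing notes name FastQC 0.11.4, STAR 2.5.2b and DESeq2 1.16.1, and the methods describe alignment to a rat genome from Ensembl to which the human transgene sequence was added. The counting program is not given in the sources used here. All 36 columns were used, and each held between 9895073 and 19284439 counts. Counts do not correct for gene length, so levels are compared between animals and not between genes. The p-values set a difference against the spread between these animals. Animals were treated as separate replicates, so the p-values and intervals take no account of litters.

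Genes averaging 50 or more raw counts were kept (12657 of 23965), and counts were scaled with TMM factors. The quasi-likelihood test of edgeR 4.0.16 (R 4.3.3) was fitted to all 36 animals with the 6 group means and 5 surrogate variables (svaseq of sva 3.50.0), following the design and thresholds of the study, whose own tool was DESeq2. The permutation procedure for their number gave 5 and the asymptotic procedure 0. Benjamini-Hochberg adjustment ran over all genes tested, and a call needed an adjusted p no higher than 0.1 and a log2 fold change of 0.3 or more in either direction. Standard errors are the absolute log2 fold change divided by the square root of F. Normalized counts are raw counts divided by the effective library size and multiplied by its mean. An offset of 0.5 preceded log2 in correlations. The scripts were tested on simulated data. Alternatives used DESeq2 1.42.0, no surrogate variables, a block of runs of library numbers, other size factors, no filter, the compared groups alone and each animal left out. Leaving out the 5 libraries above 0.2 on the first surrogate variable was chosen after seeing the data.

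The 3 genes and all lists were chosen with earlier results of these data known. The genes named are these 3 and, for each, the genes with the highest Spearman rho to it. Lists of further receptor targets, steroid supply, chaperones, the Sgk1 pathway, cell type markers, activity genes and clock genes had been set up by symbol, and are not reported here because no table used here pairs the identifiers with symbols. The transgene could not be checked by name for the same reason. Promoter windows are from RefSeq (GRCr8), which is not the build of the counts, and were matched by symbol.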

Additional observations from a re-analysis of the deposited data

Results flagged for a closer look

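Fkbp5 in WT EE held 1 animal far from the other 5 of its group. The highest animal had 914 normalized counts and the next 789, so that the gap took up 0.805 of the range of the group. Of 18 groups of 6 animals examined this way for the 3 genes, 1 was picked out, and chance picks out about 1 in 20. The first surrogate variable of this animal was −0.151, which is outside the 5 libraries that lay apart.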

How the results depend on the processing

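Under the alternatives other than leaving out 1 animal, 333 values of the 39 results were computed, of which 0 were called and 76 had the opposite sign. The largest absolute log2 fold change was 0.194 and the smallest adjusted p 0.12. Leaving out each animal in turn gave 720 values, of which 0 were called and 53 had the opposite sign, with a smallest adjusted p of 0.32. The cause of the changes in sign was not tested. DESeq2 with the same surrogate variables changed 0 signs. Leaving out the surrogate variables changed 15 of 39, and the same 15 comparisons changed without them in DESeq2 and with the runs of library numbers as a replicate block in their place (smallest adjusted p 0.321). Replicate numbers follow the order of the samples and pair no animals, so this block is the nearest to a paired fit. The 3 log2 fold changes are given in the order edgeR without surrogate variables, DESeq2 without them and the block. For Nr3c1 they were 0.0508, 0.0493 and 0.0494 for TG/WT in SE, −0.0437, −0.0429 and −0.0415 for TG/WT in EE, −0.00784, −0.00794 and −0.00726 for TG/WT averaged, 0.0273, 0.0265 and 0.0233 for EE/SE in WT, −0.0672, −0.0657 and −0.0676 for EE/SE in TG, −0.02, −0.0196 and −0.0221 for EE/SE averaged, −0.00112, −0.00331 and −0.00301 for ELS/SE in WT, −0.0826, −0.0827 and −0.0819 for ELS/SE in TG, −0.0418, −0.043 and −0.0425 for ELS/SE averaged, −0.0219, −0.0234 and −0.0203 for ELS/EE averaged and −0.0945, −0.0922 and −0.0909 for the interaction with EE. For Fkbp5 they were −0.0476, −0.0472 and −0.0475 for TG/WT in ELS and −0.0682, −0.065 and −0.071 for the interaction with EE. For Sgk1 they were 0.0159, 0.0177 and 0.0159 for EE/SE in TG and −0.038, −0.0362 and −0.038 for the interaction with ELS. With only the compared groups and no surrogate variables, the log2 fold changes of opposite sign were for Nr3c1 0.05 for TG/WT in SE, −0.0418 for TG/WT in EE, 0.0239 for EE/SE in WT, −0.061 for EE/SE in TG, −0.00449 for ELS/SE in WT and −0.0854 for ELS/SE in TG, for Fkbp5 −0.0476 for TG/WT in ELS and for Sgk1 0.0218 for EE/SE in TG. With no filter on low counts they were for Nr3c1 0.0233 for TG/WT in SE, 0.000785 for TG/WT in ELS and −0.00161 for EE/SE averaged, and with the size factors of DESeq2 for Fkbp5 −0.00016 for ELS/SE averaged. Without the 5 libraries that lay apart and without surrogate variables they were for Nr3c1 −0.0689 for TG/WT in EE, −0.0401 for TG/WT averaged, −0.0857 for EE/SE in TG, −0.0611 for EE/SE averaged, −0.0653 for ELS/SE in WT, −0.0775 for ELS/SE in TG, −0.0714 for ELS/SE averaged, −0.0103 for ELS/EE averaged and −0.0492 for the interaction with EE, for Fkbp5 −0.0487 for TG/WT in ELS and for Sgk1 0.0142 for EE/SE in TG, 0.00463 for ELS/SE in WT and −0.0576 for the interaction with ELS. Without the 5 libraries but with new surrogate variables they were for Nr3c1 0.0106 for TG/WT in SE and 0.00665 for TG/WT in ELS and for Fkbp5 −0.0457 for EE/SE in WT, −0.0117 for EE/SE averaged, 0.00044 for ELS/SE in TG and 0.0129 for ELS/EE averaged. With single animals left out, the log2 fold changes whose sign turned ranged for Nr3c1 from −0.0281 to 0.0148 for TG/WT in SE, from −0.0158 to 0.0226 for TG/WT averaged, from −0.0401 to 0.00739 for EE/SE in WT, from −0.00205 to 0.03 for EE/SE averaged, from −0.0374 to 0.0174 for the interaction with ELS and from −0.000944 to 0.0472 for ELS/SE in TG, for Fkbp5 from −0.0245 to 0.0618 for EE/SE in WT, from −0.000656 to 0.0457 for EE/SE averaged, from −0.0216 to 0.0564 for ELS/SE in WT, from −0.0165 to 0.0264 for ELS/SE averaged, from −0.0321 to 0.0478 for the interaction with EE, from −0.0629 to 0.0101 for the interaction with ELS, from −0.0414 to 0.0298 for ELS/SE in TG and from −0.00488 to 0.0623 for TG/WT in ELS and for Sgk1 from −0.0155 to 0.0545 for EE/SE averaged and from −0.0447 to 0.0105 for ELS/SE in TG.

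The counts over all genes, which are the background of the report, moved more. TG/WT in SE had 27 calls, and between 7 (without the 5 libraries and without surrogate variables) and 145 (with the block) under the alternatives. TG/WT in EE had 52, and 20 to 61. TG/WT in ELS had 17, and 9 to 33. Averaged over environments it had 73, and 63 to 158. EE/SE averaged over genotypes had 1, and 0 to 4. The 8 comparisons with 0 calls reached 60 for ELS/SE in WT (50 with the block), 19 for the interaction with EE (8 with the block), 10 for EE/SE in TG, 7 for ELS/EE, 3 for ELS/SE averaged and 1 for the interaction with ELS, each in DESeq2 without surrogate variables, and 2 for EE/SE in WT in DESeq2 with them. ELS/SE in TG had 0 throughout these fits. The counting error of each gene was below its spread between animals. Differences that lie within the intervals of the fits are not excluded here. The intervals are not adjusted for the number of genes and are not a limit of detection.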
